A study of Mus musculus with 3 samples.

Results

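Cluster 5 of the deposited cell table, the GABAergic and peptidergic amacrine cells of the retina, held 539 of 15242 cells. Its members were all cells with that cluster number, 461 from WT, 43 from rd10-vehicle and 35 from rd10-TMB. The study compared retinas of C57BL/6J mice aged 8 weeks that had been housed in the dark. WT was the wild type on plain chow, with females and males in the pool, and both rd10 groups were female and carried the rd10 point mutation of Pde6b, which encodes a phosphodiesterase subunit of rods and whose change leads to the loss of rods and later of cones. The rd10-vehicle mice ate the plain chow, and the rd10-TMB mice ate chow with tamsulosin, an alpha-1 adrenergic receptor blocker, metoprolol, a beta-1 adrenergic receptor blocker, and bromocriptine, an agonist of D2-like dopamine receptors. Each group was 1 library of papain-dissociated cells, for which the labels give 1 retina from each of 4 mice and the text of the study fewer mice in the rd10 groups.

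Amacrine cells are interneurons of the inner retina that receive glutamate from bipolar cells and inhibit bipolar cells, ganglion cells and each other. One large family releases GABA, made by the glutamate decarboxylases Gad1 and Gad2, and the other releases glycine, taken up by the transporter Slc6a9. Many GABAergic amacrine types also make a neuropeptide, such as vasoactive intestinal peptide (Vip), substance P (Tac1) or neuropeptide Y (Npy).

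Transcripts were counted as unique molecular identifiers (UMIs), summed over the cells of cluster 5 in a library and given as counts per 1000000 UMIs (CPM). The sums were 2103293 UMIs for WT, 150983 for rd10-vehicle and 182355 for rd10-TMB, so that 3 UMIs were worth 1.43, 19.9 and 16.5 CPM. Median UMIs per cell were 2662, 2012 and 4264, and the median mitochondrial share was 8.89%, 6.23% and 3.19%. No cell barcode in cluster 5 was shared between libraries. Cluster 5 held 1150, 373 and 343 UMIs of Xist and 578, 0 and 0 UMIs of Y-linked genes, so sex was mixed into each comparison with WT. With 1 library per group there was no replicate and no test, and all 95% intervals below cover counting error only.

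The recovered cells of cluster 5 made up 10.3% of the WT library (exact binomial interval 9.42 to 11.2%). In rd10-vehicle the share was 0.722% (0.523 to 0.972%), and in rd10-TMB it was 0.727% (0.507 to 1.01%). The rd10-vehicle share was 0.0702 times that of WT (0.0501 to 0.0960), and the rd10-TMB share 0.0707 times (0.0486 to 0.0997), which is 14.2-fold lower in both. The rd10-TMB share was 1.01 times the rd10-vehicle share, with an interval from 0.626 to 1.61. Cluster 9, the amacrine cells with Slc6a9, was at 0.158 times (0.118 to 0.209) and 0.151 times (0.109 to 0.206) its WT share in the same order. Cluster 10, which carries Cck, was at 0.337 times (0.266 to 0.425) and 0.479 times (0.382 to 0.598). Against both, the intervals of cluster 5 did not overlap. These are shares of recovered cells, which depend on the cells that pass dissociation and on the number of all other cells.

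The label was checked against its 5 markers, which is a description because the cells were clustered on these genes. On the mouse build GRCm38.p6 these genes lie at chr2:70561303-70602014 (Gad1), chr2:22621015-22693877 (Gad2), chr10:5639193-5647617 (Vip), chr6:7555061-7562978 (Tac1) and chr1:120340582-120343174 (C1ql2). Over the 15 WT clusters with at least 20 cells, cluster 5 had the highest CPM of Gad1, Gad2, Vip, Tac1 and C1ql2, as well as of the vesicular GABA transporter Slc32a1 and of the transcription factor Maf. Pax6, at 858 CPM, stood level with the 852 CPM of cluster 9, and Tfap2b, at 793 CPM, stood below the 905 CPM of the unnamed cluster 6. It held 70.2% of the Gad1 UMIs of the WT library, 81.4% of those of Gad2 and 93.5% of those of Vip. Glycine, acetylcholine and dopamine markers were scarce. Slc6a9 stood at 24.7 CPM in WT cluster 5 against 679 CPM in cluster 9, and Cck at 19.5 CPM against 1343 CPM in cluster 10. Chat, the acetylcholine-synthesising enzyme, had 11, 0 and 0 UMIs in the order WT, rd10-vehicle and rd10-TMB, and Th, of dopamine synthesis, had 13, 0 and 3.

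**Figure D1:**
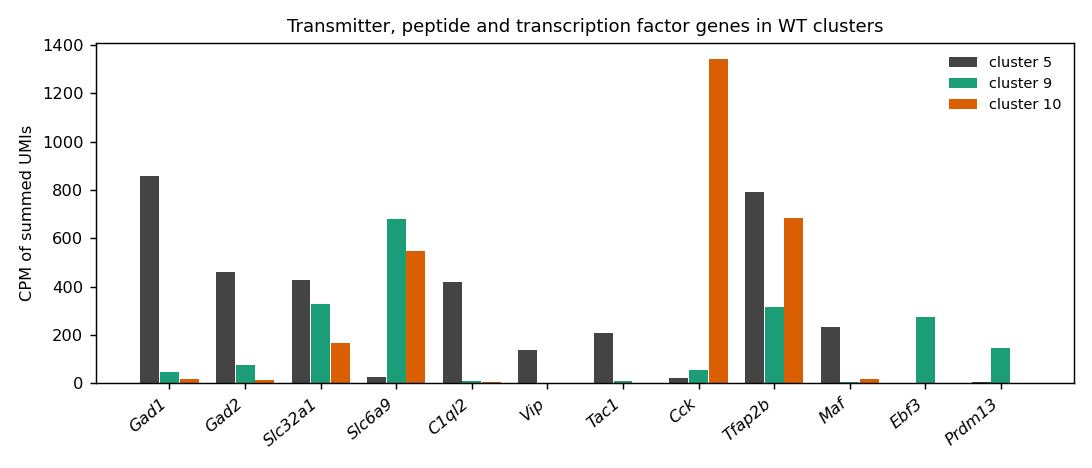
CPM of summed UMIs (y axis) of 12 genes in clusters 5, 9 and 10 of the WT library, with 1 bar per cluster. Gad1, Gad2, C1ql2, Vip, Tac1 and Maf stand highest in cluster 5, Slc6a9, Ebf3 and Prdm13 in cluster 9, and Cck in cluster 10.

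Of the cells with 3 or more UMIs of Gad1 and Gad2 together, 246 of 309 from WT, 22 of 24 from rd10-vehicle and 21 of 23 from rd10-TMB lay in cluster 5. Cluster 6 held 36, 2 and 2 of them, cluster 9 held 12, 0 and 0, and none lay in the Müller glia-like cluster 0. These cells made up 6.90%, 0.403% and 0.478% of the libraries. The lower share of recovered cells in rd10 was therefore also present when cells were chosen by Gad1 and Gad2 in place of the cluster number. Both genes are markers of the cluster and most of these cells were its members, so this is a description and no separate check. A limit of 3 UMIs also depends on the depth per cell.

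The genes that set WT cluster 5 most apart from all other WT cells were Tac2, at 88.9 against 0.596 CPM, Cemip, at 61.3 against 0.417 CPM, Vip, at 136 against 1.19 CPM, Tmem114, Cbln2, Cpne5, Fibcd1 and Ccdc88b. In Cbln2, which encodes a secreted synapse organiser of the cerebellin family, the values were 159 against 2.26 CPM. The rd10 libraries divided this list. Cpne5 was at 350, 404 and 335 CPM in cluster 5 of WT, rd10-vehicle and rd10-TMB and Ccdc88b at 152, 325 and 263 CPM. Tac2, Vip and Cbln2 had between 0 and 3 UMIs per rd10 library.

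A gene was called past the fold when its ratio was at least 2-fold and the counting interval of the ratio excluded 1, among genes expected to have at least 10 UMIs in the smaller sum. Because the WT sum was much the larger, a gene could reach this minimum through its WT count alone, so counts of list members against WT are descriptions. For rd10-vehicle over WT, 70 of 3039 genes were higher (2.30%) and 137 lower (4.51%). For rd10-TMB over WT, 75 of 3657 genes were higher (2.05%) and 148 lower (4.05%). For rd10-TMB over rd10-vehicle, 69 of 3043 genes were higher (2.27%) and 39 lower (1.28%). Both comparisons with WT share the WT library, and the median log2 ratio over all genes tested was 0.05, 0.12 and 0.05 in this order. With median-of-ratios size factors the same splits against WT were 59 higher and 196 lower in rd10-vehicle and 52 higher and 230 lower in rd10-TMB, and the medians of all genes moved to -0.07 and -0.03. With the mean over cells they were 109 higher and 128 lower, and 147 higher and 144 lower. With each cell thinned to 1000 UMIs, where 518 and 295 genes could be tested, the direction of the splits turned round, with 35 higher and 21 lower in rd10-vehicle and 27 higher and 15 lower in rd10-TMB. The larger number of lower genes was therefore not kept under every setting.

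The genes of GABA synthesis and transport were present in all libraries. Gad1 was at 856 CPM in WT (817 to 896), against 523 CPM in rd10-vehicle (414 to 652) and 669 CPM with TMB (556 to 799). Its log2 ratio to WT was -0.69 (-1.05 to -0.38) in rd10-vehicle and -0.34 (-0.63 to -0.09) in rd10-TMB, below a 2-fold difference in both. Gad2 was at 459, 589 and 570 CPM and Slc32a1 at 429, 417 and 395 CPM. Neither passed the fold in any comparison. Slc6a11, a GABA transporter, was at 228, 212 and 93.2 CPM, lower in rd10-TMB than in WT by a log2 ratio of -1.21 (-2.08 to -0.59) and than in rd10-vehicle by -1.15 (-2.13 to -0.29). Within cells with a UMI of Maf these were -0.53 (-1.66 to 0.29) and -0.98 (-2.17 to 0.02), not past the fold. Of the 7 genes of this list 6 were tested and 0 were past the fold in rd10-vehicle against WT. In rd10-TMB 1 of 6, Slc6a11, was lower, beside 4.05% of all genes. The list medians were -0.04 and -0.22, beside 0.05 and 0.12 for all genes.

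A UMI of Gad1 or Gad2 was found in 389 of 461 WT cells (84.4%, 80.7 to 87.6%), in 34 of 43 members of rd10-vehicle (79.1%, 64.0 to 90.0%) and in 23 of 35 members of rd10-TMB (65.7%, 47.8 to 80.9%). In the cone-like cluster 4, which should lack both genes, the shares were 5.40%, 0.738% and 0.243% at median depths of 5333, 4857 and 5548.5 UMIs. In the Müller glia-like cluster 0 they were 7.17%, 0.843% and 1.20% at 6300, 8593.5 and 9454.5 UMIs. The shares in cluster 5 lay well above this background in each library, and the background itself was highest in WT. With each cell thinned to 1000 UMIs, which left out 20, 4 and 7 shallower cells, the shares in cluster 5 were 65.1%, 69.2% and 57.1%, with intervals that overlapped (60.4 to 69.5%, 52.4 to 83.0% and 37.2 to 75.5%). Slc32a1 was seen in 68.1%, 72.1% and 80.0% of cells and C1ql2 in 48.2%, 72.1% and 60.0%.

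**Figure D2:**
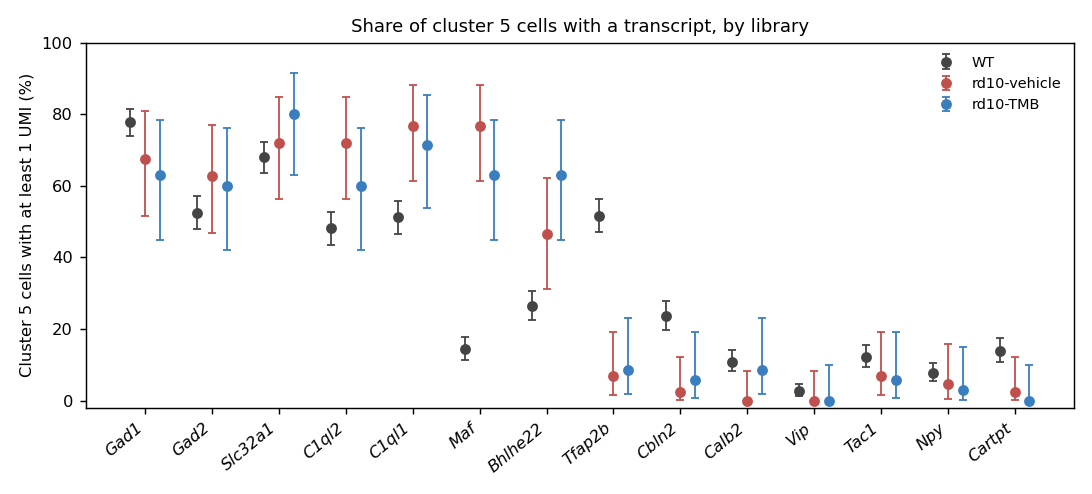
Share of cluster 5 cells with at least 1 UMI (y axis, %) of 14 genes in WT (black), rd10-vehicle (red) and rd10-TMB (blue), with exact 95% binomial intervals that cover counting error only. The shares of Gad1, Gad2 and Slc32a1 lie between 52.5% and 80.0% in every library, Maf and Bhlhe22 stand higher in both rd10 libraries than in WT, and Tfap2b and Cbln2 stand lower.

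The neuropeptide genes were carried by few cells, and mostly in WT. Of 17 listed genes 12 were measured. The 5 that could be tested, Vip, Tac1, Tac2, Npy and Cartpt, reached the minimum through their WT counts, and 3 of them were lower past the fold in rd10-vehicle and 5 in rd10-TMB, beside 4.51% and 4.05% of all genes, from which nothing is read about the list. A neuropeptide UMI was found in 160 of 461 members in WT, against 5 of 43 in rd10-vehicle and 5 of 35 in rd10-TMB. Summed over the list, the level was 749 CPM in WT, against 411 CPM in rd10-vehicle and 165 CPM with TMB.

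Vip had 287 UMIs in 12 WT cells, of which 5 cells held 95.1%, and 0 UMIs in both rd10 libraries. Against the level of 3 UMIs this was at least 6.87-fold lower in rd10-vehicle and at least 8.29-fold lower in rd10-TMB. No UMI in 43 cells allows a share of up to 8.22% with a UMI by the upper bound of the exact interval, and none in 35 cells a share of up to 10.0%, both above the 2.60% of WT cells, so a loss of Vip cells relative to other members was not detectable at this number of cells. The rd10-TMB library held 7 Vip UMIs outside cluster 5.

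Tac1, which encodes substance P, had 434, 14 and 3 UMIs in 56, 3 and 2 cells. Its log2 ratio to WT was -1.06 (-2.04 to -0.39) in rd10-vehicle and -3.24 (-5.93 to -2.09) in rd10-TMB. The first of these became 0.43 when WT was limited to the 83 cells that carried Xist but no Y-linked transcript. Tac2, which encodes neurokinin B, had 187, 0 and 3 UMIs in 15, 0 and 1 cells. Npy had 413, 37 and 2 UMIs, and 36 of the 37 in rd10-vehicle came from 1 cell. Without the highest cell of each library its log2 ratio for rd10-vehicle over WT moved from 0.35 (-0.21 to 0.81) to -3.60. Cartpt had 176, 11 and 0 UMIs, and the 11 in rd10-vehicle also came from 1 cell. Gal was the exception in direction, with 3, 0 and 21 UMIs, all 21 in 1 rd10-TMB cell of 19183 UMIs.

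In WT the peptides divided the cells. At 10 or more UMIs, Vip marked 5 cells, Tac1 14, Npy 13, Tac2 4 and Cartpt 4, and each of these cells had a UMI of Gad1 or Gad2. Tac1 and Npy met in 8 cells, Tac1 and Tac2 in 2, and Vip and Cartpt in 2, whereas 0 of the 5 Vip cells reached 10 UMIs of Tac1 or Npy. The Vip cells all carried Tfap2b and 1 of 5 carried C1ql2, while 13 of the 14 Tac1 cells carried C1ql2. Their median depths of 7420 and 10754 UMIs were above the 2662 of all WT members.

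Granins and peptide-processing enzymes, which package and cleave prohormones, were kept at similar summed levels of 4102, 4133 and 4025 CPM. Of the 9 genes tested in rd10-vehicle against WT, 0 were higher and 1 lower, beside 2.30% and 4.51% of all genes. Of the 11 tested in rd10-TMB, 1 was higher and 2 lower, beside 2.05% and 4.05%. Vgf, a granin-like prohormone, had 280, 3 and 1 UMIs. Chromogranin A (Chga) was at 395, 258 and 181 CPM, lower in rd10-TMB by a log2 ratio of -1.08 (-1.67 to -0.62), and by -0.80 (-1.63 to -0.17) within the cells with a UMI of Maf described below, not past the fold. Pcsk1, the prohormone convertase 1, was at 51.3, 66.2 and 137 CPM, higher in rd10-TMB than in WT by 1.46 (0.73 to 2.05), and by 0.96 (0.12 to 1.73) within Maf cells.

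Among the transcription factors that divide amacrine types, Maf (chr8:115703253-115706894) was higher and Tfap2b lower in both rd10 libraries than in WT. Maf was at 231 CPM in WT (211 to 252), against 974 CPM in rd10-vehicle (823 to 1144) and 949 CPM with TMB (813 to 1101), a log2 ratio to WT of 2.08 (1.80 to 2.35) and 2.05 (1.78 to 2.29). Bhlhe22, a bHLH factor of subsets of amacrine cells, was at 155, 510 and 554 CPM, a log2 ratio to WT of 1.73 (1.34 to 2.08) and 1.84. Tfap2b, an AP-2 factor of amacrine cells, was at 793 CPM in WT (755 to 832), against 113 CPM in rd10-vehicle (65.6 to 180) and 21.9 CPM with TMB (5.98 to 56.2), a log2 ratio to WT of -2.73 (-3.60 to -2.13) and -4.85 (-7.05 to -3.82). Of its 17 UMIs in rd10-vehicle 14 came from 1 cell. Tfap2b also stood lower in the rd10 libraries in clusters 9 and 10, at 314, 26.6 and 58.5 CPM in cluster 9 and 683, 119 and 359 CPM in cluster 10. Pax6, expressed in most amacrine cells, was at 858, 1013 and 1069 CPM and did not pass the fold. Of 28 measured factors, 2 of 10 tested were higher and 1 lower in rd10-vehicle against WT, beside 2.30% and 4.51% of all genes. In rd10-TMB 3 of 12 were higher and 2 lower, beside 2.05% and 4.05%.

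The cells were next divided by detection of Maf, a split chosen after its values had been seen. In WT 66 of 461 members had a UMI of Maf (14.3%, 11.2 to 17.9%). The rd10-vehicle library had 33 of 43 (76.7%, 61.4 to 88.2%), and the rd10-TMB library 22 of 35 (62.9%, 44.9 to 78.5%). Of these, 12, 12 and 4 cells stood at 1 UMI, next to the limit. With 2 UMIs required the shares were 11.7%, 48.8% and 51.4%, and with each cell thinned to 1000 UMIs 10.9%, 64.1% and 53.6%. The cone-like cluster 4 gave 2.16%, 1.11% and 0.728%, and the Müller glia-like cluster 0, where Maf is also transcribed, 37.9%, 42.9% and 42.3%. Thinned to 1000 UMIs, cluster 0 gave 7.59%, 6.99% and 7.30%.

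As shares of all recovered cells, members with Maf made up 1.47% in WT, against 0.554% in rd10-vehicle and 0.457% with TMB, which was 2.66-fold (1.73 to 4.17) and 3.22-fold (1.96 to 5.49) below WT. Members without Maf made up 8.82%, 0.168% and 0.270%, which was 52.5-fold (28.2 to 110) and 32.7-fold (18.9 to 61.9) below WT. In cell numbers, 395 WT members without Maf stood against 10 and 13. With 2 UMIs of Maf required, members without it numbered 407, 22 and 17, which was 24.6-fold and 25.7-fold below WT, at 0.0407 times (0.0252 to 0.0624) and 0.0389 times (0.0224 to 0.0630) its share, and members with it were 3.42-fold and 3.22-fold below WT. The size of the first ratio therefore depended on the limit. Since Maf was chosen for its higher level in rd10, the smaller difference of the cells with Maf describes that level and is no separate result. Between rd10-TMB and rd10-vehicle the ratios of the shares were 0.825 (0.458 to 1.46) with Maf and 1.61 (0.651 to 4.10) without.

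**Figure D3:**
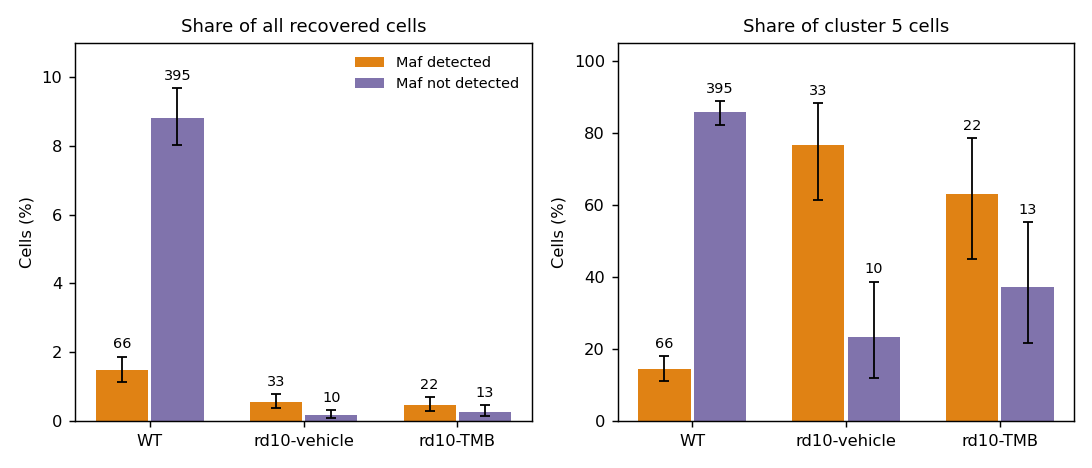
Cluster 5 cells with and without a UMI of Maf as a share of all cells of each library (left, %) and of cluster 5 (right, %), with exact 95% binomial intervals covering counting error only and cell numbers above the bars. Cells without Maf are 8.82% of WT and under 0.3% of both rd10 libraries, and cells with Maf go from 1.47% to 0.554% and 0.457%.

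Several genes that stood highest in rd10 cluster 5 were already high in the Maf cells of WT. Ptn, a secreted heparin-binding growth factor, was at 278, 1007 and 762 CPM over all members of WT, rd10-vehicle and rd10-TMB. In WT it was at 170 CPM in members without Maf and 793 CPM in members with Maf, and at 1107 and 1015 CPM in members with Maf of the rd10 libraries. The chemokine gene Cxcl14 was at 241 and 801 CPM in WT without and with Maf and 1392 and 1125 CPM in the rd10 cells with Maf. Complexin 2 (Cplx2), which clamps and promotes vesicle fusion, was at 284, 1043, 1210 and 1336 CPM in the same order. Ddah1, Pex5l, Prdm8 and Bhlhe22 were also higher with Maf, from 93.7 to 494 CPM in Ddah1, 88.0 to 376 CPM in Pex5l, 43.1 to 269 CPM in Prdm8 and 125 to 299 CPM in Bhlhe22 between WT cells without and with Maf.

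Between cells with Maf alone, the log2 ratios to WT were smaller. In rd10-vehicle Ptn went from 1.86 (1.59 to 2.12) to 0.49 (0.17 to 0.79), Cxcl14 from 1.78 (1.53 to 2.02) to 0.80 (0.51 to 1.08), Cplx2 from 1.32 (1.06 to 1.56) to 0.22 (-0.08 to 0.50) and Bhlhe22 from 1.73 to 0.80 (0.31 to 1.26). None of these remained past the fold. Within Maf cells 33 of 2463 genes tested were higher (1.34%) and 62 lower (2.52%) in rd10-vehicle than in WT, 39 of 2531 higher (1.54%) and 63 lower (2.49%) in rd10-TMB than in WT, and 56 of 2367 higher (2.37%) and 32 lower (1.35%) for rd10-TMB over rd10-vehicle. Of the 70 genes higher in rd10-vehicle over all members, 67 could be tested within Maf cells and 17 were past the fold there, and of the 75 in rd10-TMB, 67 could be tested and 14 were. The lower genes could be tested less often, 32 of 137 and 38 of 148, and of these 20 and 17 were past the fold. The libraries differed in depth within this split, with medians of 3731, 2056 and 6421.5 UMIs in cells with Maf and 2554, 1573.5 and 2032 without.

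Several genes near 0 in rd10 were carried in WT mainly by members without Maf. Cbln2 was at 191 CPM in WT cells without Maf and 5.49 CPM in those with Maf, and at 0 UMIs in the Maf cells of both rd10 libraries. Pde3a, a cyclic nucleotide phosphodiesterase, was at 193 and 13.7 CPM in WT and at 0 UMIs in the Maf cells of both rd10 libraries. Tfap2b was at 932 CPM without and 129 CPM with Maf in WT, and at 8.65 and 0 CPM in the Maf cells of rd10-vehicle and rd10-TMB. In WT 56.7% of members without Maf and 21.2% of those with Maf carried a UMI of Tfap2b. Within Maf cells Tfap2b still had a log2 ratio to WT of -2.93 (-9.23 to -1.35) in rd10-vehicle, on 47 against 1 UMIs.

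**Figure D4:**
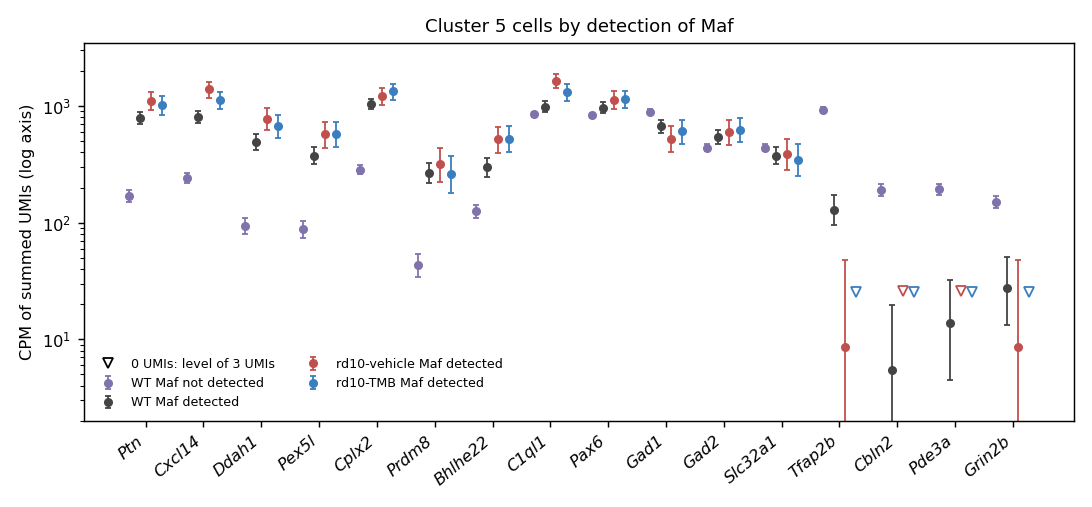
CPM of summed UMIs (y axis, log scale) of 16 genes in WT cluster 5 cells without Maf (violet) and in cells with Maf of WT (black), rd10-vehicle (red) and rd10-TMB (blue), with exact 95% Poisson intervals covering counting error only. Ptn to Bhlhe22 stand higher with Maf in all 3 libraries than without Maf in WT, C1ql1 to Slc32a1 differ by less than 2-fold, Tfap2b to Grin2b stand highest without Maf, and open triangles mark 0 UMIs at the level of 3 UMIs.

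Some genes differed in summed level within the Maf cells as well. Npy had 84 UMIs in the Maf cells of WT, 83 of them in 4 cells, against 0 in those of either rd10 library. It was seen in 5 of 66 WT cells (7.58%, 2.51 to 16.8%), 0 of 33 cells of rd10-vehicle, which allows up to 10.6%, and 0 of 22 of rd10-TMB, which allows up to 15.4%, so fewer Npy cells among the Maf cells were not detectable. Tac1 had 70 UMIs in WT, 49 of them in 3 cells, against 1 and 2 UMIs, and was seen in 19.7% (10.9 to 31.3%), 3.03% (0.0767 to 15.8%) and 4.55% (0.115 to 22.8%) of the Maf cells, with intervals that overlapped. The LIM-domain gene Lmo4 was at 557 CPM in the Maf cells of WT and 190 and 144 CPM in those of rd10-vehicle and rd10-TMB, a log2 ratio of -1.49 (-2.26 to -0.91) and -1.88 (-2.76 to -1.24). In WT 5 cells held 106 of its 203 UMIs, and it was seen in 51.5%, 24.2% and 45.5% of the Maf cells. Over all members Lmo4 was not past the fold, at 255, 225 and 159 CPM. Fibcd1, one of the genes that set WT cluster 5 apart, had 48, 1 and 4 UMIs in 26, 1 and 4 of the Maf cells. Gad1, Gad2 and Slc32a1 did not pass the fold within Maf cells in any comparison, with Gad1 at 675, 527 and 609 CPM and Gad2 at 546, 597 and 626 CPM.

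C1q-like proteins and cerebellins are secreted organisers of synapses. C1ql1 was at 875, 1517 and 1174 CPM and C1ql2 at 420, 417 and 411 CPM, so both stayed in the members recovered from rd10 retinas. C1ql3 had 165 UMIs in WT against 0 in each rd10 library, at least 3.95-fold and 4.77-fold lower. Those 165 UMIs came from 29 of 461 WT cells, 34 of them from 1 cell. As for Vip, 0 of 43 and 0 of 35 cells allow shares of up to 8.22% and 10.0%. A loss of C1ql3 cells relative to other members was therefore not detectable. Cbln2 had 334, 2 and 3 UMIs in 109, 1 and 2 cells. Of the 4 genes tested, 2 were lower past the fold against WT in each rd10 library, beside 4.51% and 4.05% of all genes. Both, C1ql3 and Cbln2, reached the minimum through their WT counts, so nothing is read from this about the list.

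Of the receptors for the glutamate that amacrine cells receive, the subunit genes Grin2a, Grin2b and Grik2 were lower past the fold in both rd10 libraries. Grin2a, of the NMDA receptor, had 197, 2 and 1 UMIs, Grin2b 273, 4 and 9 UMIs, and Grik2, of the kainate receptor, 162, 1 and 6 UMIs. In WT, Grin2b was at 151 CPM without Maf and 27.4 CPM with Maf. Grm7, an inhibitory metabotropic receptor, was higher, at 84.2, 185 and 170 CPM, a log2 ratio to WT of 1.18 (0.51 to 1.72) and 1.05 (0.41 to 1.57). Within Maf cells these were 0.71 (-0.09 to 1.42) and 0.43 (-0.44 to 1.17), no longer past the fold. Of 10 glutamate receptor genes tested in rd10-vehicle 1 was higher and 3 lower, beside 2.30% and 4.51% of all genes. Of 11 in rd10-TMB 1 was higher and 4 lower, beside 2.05% and 4.05%. The lower ones reached the minimum through their WT counts, so nothing is read from these counts about the list. Summed over the list, the levels were 2229, 2411 and 1996 CPM.

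Of the GABA and glycine receptors, the GABA-A receptor subunit gene Gabra2 had 297, 11 and 10 UMIs and was the 1 of 9 genes tested that was lower past the fold in rd10-TMB against WT. Of all genes 4.05% were lower there. The direction of Gabra2 in rd10-TMB turned to 0.31 when cells were thinned and to 0.45 within Maf cells. Of 16 genes of vesicle release 11 were tested against WT. Cplx2 alone was higher past the fold, in both rd10 libraries, beside 2.30% and 2.05% of all genes.

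The measured receptors that tamsulosin, metoprolol and bromocriptine act on had between 0 and 24 UMIs per library in these cells. Adra1b had 15, 0 and 8 UMIs, and all 8 in rd10-TMB came from 1 cell. Adra1a and Adra1d had 1 UMI each in WT against 0 in each rd10 library, Adrb1 had 12, 0 and 0 UMIs, and Drd2 had 2, 0 and 0 UMIs. Drd4, which encodes a D2-like dopamine receptor, had 24, 1 and 3 UMIs in 20, 1 and 3 cells. Drd1, the D1 dopamine receptor, which is not D2-like, was the one gene of 11 with enough UMIs, at 118, 139 and 115 CPM and in 34.5%, 37.2% and 48.6% of cells. Its log2 ratio for rd10-TMB over rd10-vehicle was -0.27 (-1.22 to 0.67).

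Immediate-early genes, which are transcribed within minutes of activity or of stress such as dissociation, were, in sum, higher in the order WT, rd10-vehicle, rd10-TMB. Proximal promoters of 2 of them, Fos and Dusp1, of the neuropeptide gene Cartpt and of the peptide-processing gene Pcsk1 are shown because each holds the core of the cAMP response element, TGACG on either strand. The bases are the 250 before the start site of transcription from RefSeq (GRCm38.p6), 5′ to 3′ on the gene's strand, with the core in capitals, as found by a search of the windows from 250 bases before to 50 after the start.
Fos, chr12:85473640-85473889, plus strand: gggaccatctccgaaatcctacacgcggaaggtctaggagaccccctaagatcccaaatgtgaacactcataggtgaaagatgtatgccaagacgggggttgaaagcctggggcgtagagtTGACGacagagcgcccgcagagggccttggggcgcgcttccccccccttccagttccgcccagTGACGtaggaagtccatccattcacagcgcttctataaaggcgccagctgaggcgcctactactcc
Dusp1, chr17:26508473-26508722, minus strand: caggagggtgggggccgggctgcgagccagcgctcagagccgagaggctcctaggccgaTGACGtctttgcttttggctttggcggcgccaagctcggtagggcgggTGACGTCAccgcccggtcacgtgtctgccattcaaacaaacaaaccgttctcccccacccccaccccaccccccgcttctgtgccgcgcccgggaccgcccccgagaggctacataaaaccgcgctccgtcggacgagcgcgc
Cartpt, chr13:99900684-99900933, minus strand: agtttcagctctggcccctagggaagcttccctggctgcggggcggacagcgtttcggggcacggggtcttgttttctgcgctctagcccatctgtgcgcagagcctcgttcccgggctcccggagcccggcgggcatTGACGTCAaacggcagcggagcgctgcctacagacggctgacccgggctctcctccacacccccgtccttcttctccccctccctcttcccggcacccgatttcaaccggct
Pcsk1, chr13:75089607-75089856, plus strand: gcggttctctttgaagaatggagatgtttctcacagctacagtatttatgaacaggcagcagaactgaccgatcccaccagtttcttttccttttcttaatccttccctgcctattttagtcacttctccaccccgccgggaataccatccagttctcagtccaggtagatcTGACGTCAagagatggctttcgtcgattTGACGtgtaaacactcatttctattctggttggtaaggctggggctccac
The full palindrome TGACGTCA, which contains the core on both strands, was in the windows of Dusp1, Cartpt and Pcsk1 and not in that of Fos. Over all 32851 promoter windows 1.79% held the full motif and 20.8% the core. Among the immediate-early genes 2 of 13 held the full motif and 8 of 13 the core, among the neuropeptide genes 1 of 10 and 6 of 10, and among the granins and peptide-processing genes 3 of 9 and 7 of 9. A match is a description of these letters, and binding was not measured.

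Fos was at 806 CPM in WT (768 to 846), against 1616 CPM in rd10-vehicle (1420 to 1832) and 2331 CPM with TMB (2114 to 2563). Its log2 ratio was 1.01 (0.80 to 1.20) for rd10-vehicle over WT, 1.53 (1.37 to 1.69) for rd10-TMB over WT and 0.53 (0.30 to 0.76) for rd10-TMB over rd10-vehicle. Junb, a partner of Fos in AP-1, was at 329, 695 and 932 CPM, Jun at 279, 570 and 691 CPM and Dusp1, a phosphatase of MAP kinases, at 128, 298 and 384 CPM. Egr1, a zinc-finger factor, did not follow this order, at 469, 397 and 795 CPM. Of 10 genes tested, 4 were higher and 1, Btg2, lower in rd10-vehicle against WT, beside 2.30% and 4.51% of all genes. In rd10-TMB 6 were higher and 0 lower, beside 2.05% and 4.05%. The list medians were 0.50 and 1.17, beside 0.05 and 0.12 for all genes. Between the rd10 libraries 2 of 9 tested, Ier2 and Btg2, were higher in rd10-TMB, beside 2.27% of all genes. The median was 0.53, beside 0.05 for all genes. Of the 45 Ier2 UMIs in rd10-TMB 20 came from 1 cell.

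**Figure D5:**
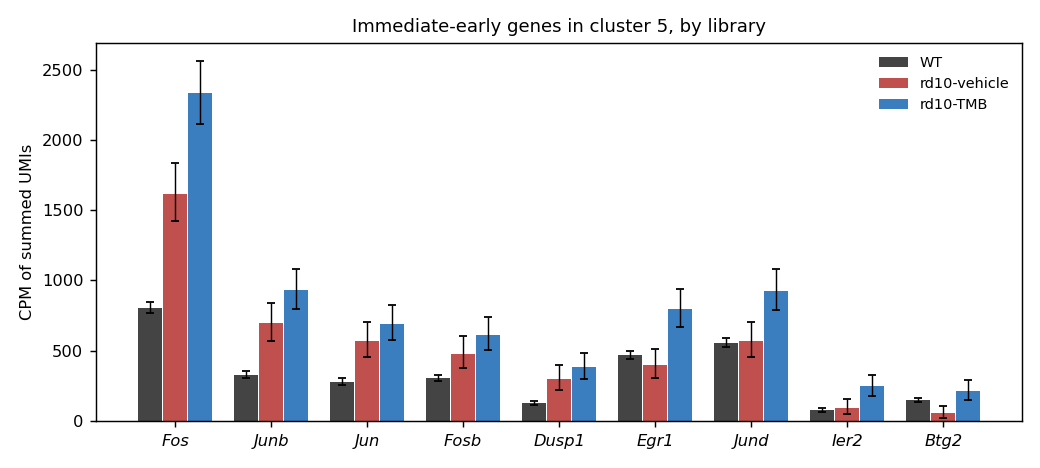
CPM of summed UMIs (y axis) of 9 immediate-early genes in cluster 5 of WT, rd10-vehicle and rd10-TMB, with exact 95% Poisson intervals covering counting error only. Fos, Junb, Jun, Fosb and Dusp1 are lowest in WT and highest in rd10-TMB, and Egr1, Ier2 and Btg2 are highest in rd10-TMB.

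Other measures moved with the immediate-early genes. In WT, cells with Maf had 1487 CPM of Fos and cells without it 664 CPM, and within Maf cells the log2 ratio of Fos to WT was 0.42 (0.18 to 0.64) in rd10-vehicle and 1.10 (0.91 to 1.29) in rd10-TMB. Summed over the list, the level in cluster 5 was 3285, 4921 and 7376 CPM. The other clusters gave 1377, 1896 and 2322 CPM in cluster 9, 1345, 1535 and 1585 CPM in cluster 10, 23105, 34580 and 34324 CPM in cluster 0 and 4315, 9086 and 6992 CPM in cluster 4. The part of these other clusters and of depth per cell in the differences of cluster 5 was not tested.

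Between the rd10 libraries, the 8 genes highest in rd10-TMB over rd10-vehicle included the rod genes Cnga1, with 75, 0 and 29 UMIs, Prph2, with 197, 3 and 41 UMIs, and Pde6g, with 207, 6 and 33 UMIs. All 7 rod markers tested were higher past the fold, beside 2.27% of all genes. Summed over the 10 rod markers the level was 1360, 583 and 2407 CPM, of which 1 cell held 59.2% in rd10-TMB, and the median over cells was 1376, 579 and 704 CPM. The part of rod transcripts in the other differences between the rd10 libraries was not tested. Calb2, the calcium-binding protein calretinin, was the highest, with 442, 0 and 70 UMIs, at least 19.3-fold above rd10-vehicle. It was seen in 50, 0 and 3 cells, and 58 of the 70 UMIs came from 1 cell. Without that cell 12 UMIs in 2 cells remained, at least 3.49-fold above rd10-vehicle, and its log2 ratio for rd10-TMB over WT went from 0.89 (0.48 to 1.24) to -0.90.

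The genes lowest in rd10-TMB over rd10-vehicle were Npy, Nupr1, Pex2, Cdh10, Lcorl, Cpne6, Tob1 and Ptpmt1. Nupr1, a stress-induced nuclear protein gene, was at 68.9, 252 and 49.4 CPM, with a log2 ratio of 1.90 (1.31 to 2.39) for rd10-vehicle over WT and -2.24 (-3.58 to -1.28) for rd10-TMB over rd10-vehicle. It was seen in 55, 14 and 6 cells. Within Maf cells it was at 228, 311 and 50.7 CPM, so that the first ratio fell to 0.47 (-0.16 to 1.03), no longer past the fold, and the second was -2.43 (-4.15 to -1.36). Over all members Lcorl, Cpne6 and Tob1 had the same pattern, at 82.3, 232 and 65.8 CPM in Lcorl, 95.6, 232 and 65.8 CPM in Cpne6 and 99.8, 238 and 76.8 CPM in Tob1. Within Maf cells Lcorl was at 85.1, 251 and 59.2 CPM, Cpne6 at 145, 277 and 59.2 CPM and Tob1 at 104, 251 and 76.1 CPM. These values rest on between 6 and 38 UMIs in the rd10 libraries apart from Npy.

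Markers of other cell types were present at differing levels beside those of rods. The Müller glia markers summed to 937, 1066 and 932 CPM, more than the rod markers in rd10-vehicle, of which Dkk3 gave 1338, 80 and 76 UMIs, while the defining genes Rlbp1 and Slc1a3 had 6, 1 and 0 and 4, 0 and 1 UMIs. Of the Müller glia markers tested, 1 of 4, the apolipoprotein gene Apoe, was higher past the fold in rd10-TMB against WT, at 59.9, 152 and 137 CPM. Of all genes 2.05% were higher there. The markers of ON and rod bipolar cells summed to 379, 166 and 121 CPM. Both genes tested, Prkca and Vstm2b, were lower against WT in each rd10 library, beside 4.51% and 4.05% of all genes. Cone markers summed to 127, 166 and 98.7 CPM, ganglion cell markers to 89.4, 19.9 and 32.9 CPM, and microglia markers to 15.2, 13.2 and 5.48 CPM. The reactive glia genes named by the study, of which Nupr1 is one, summed to 224, 431 and 137 CPM, and Nupr1 gave 145, 38 and 9 of their 472, 65 and 25 UMIs. Lens crystallins summed to 2.85 CPM in WT (1.05 to 6.21), against 46.4 CPM in rd10-vehicle (18.6 to 95.5) and 54.8 CPM with TMB (26.3 to 101), on 6, 7 and 10 UMIs, and were seen in 1.08%, 16.3% and 25.7% of cells. The part of these transcripts in the differences between the libraries was not tested.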

How the data were processed

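Retinal cells of 3 groups were profiled by droplet single-cell RNA sequencing, with 1 library per group. Per the submitters' processing notes and the methods of the study, the authors aligned reads to mm10 with Cell Ranger 6.0.1, combined the libraries with Cumulus, removed doublets with Scrublet, dropped cells under 500 detected genes in Seurat 3.2.2 and clustered the rest after Harmony. The deposited matrix is in natural log units of UMIs scaled to 10000 per cell, with 1 added, and a cell table gives the UMI count, library and cluster. Whole UMIs were recovered from each deposited value and the count of its cell. No further cell or doublet filter was added.

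UMIs of cluster 5 were summed per library (CPM). Log2 ratios had a pseudocount of 1 UMI. It weighs more in the smaller rd10 sums, so against WT the ratios of low genes are shifted upwards in rd10. With 0.1 UMI the splits against WT were 60 higher and 165 lower in rd10-vehicle. In rd10-TMB they were 71 higher and 182 lower. Ratio intervals were exact conditional binomial, level intervals exact Poisson and share intervals Clopper-Pearson, at 95%. A count of 0 was set to 3 counts for a bound. Cells are not replicates, so no p-value was computed. On simulated counts with 4-fold changes, 92.0% of lowered genes were recovered for rd10-vehicle over WT, 86.0% for rd10-TMB over WT and 60.0% for rd10-TMB over rd10-vehicle, and 99.0%, 100% and 99.0% of raised genes. Of the unchanged genes 1.33%, 0.579% and 2.04% were called in the same order. In the data 6.81%, 6.10% and 3.55% of genes tested were called. The simulated counts were Poisson draws of the sums, so UMIs gathered in 1 cell were not simulated.

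Named genes were those of the lists with at least 20 UMIs in cluster 5, the 8 highest and 8 lowest ratios past the fold for each pair of libraries, and the 15 genes with the largest ratio of WT cluster 5 to other WT cells among genes with at least 50 UMIs. The rankings leave out sex-linked genes, and some genes are not reported here. Scarcer list genes are named only as checks of a label or of the drug targets. The members, lists and comparisons were chosen with earlier results of these data known. The split by Maf, the sums without the highest cell and the text on Lmo4 were chosen after the values were seen. Cluster names ending in -like rest on marker genes and may differ from those of the study. Coordinates are those of RefSeq on GRCm38.p6. The analysis used Python, numpy, scipy and pandas.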

Additional observations from a re-analysis of the deposited data

How the results depend on the processing

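Counts of genes past the fold depended on the count minimum and on depth. Against 207 for rd10-vehicle over WT, 223 for rd10-TMB over WT and 108 for rd10-TMB over rd10-vehicle, they were 56, 42 and 20 with cells thinned to 1000 UMIs, 411, 418 and 187 with a minimum of 5 expected UMIs, 64, 83 and 33 with 20, 670, 648 and 272 with none, and 454, 569 and 183 at 1.5-fold. Thinning also turned the splits against WT from mostly lower to 35 higher and 21 lower, and 27 higher and 15 lower. Against WT cells that carried Xist but no Y-linked transcript they were 59 higher and 80 lower, and 85 higher and 91 lower. Within Maf cells the first and second were 95 and 102. Without cluster 0 the shares of cluster 5 were 11.7%, 1.24% and 1.14%, and the ratio of rd10-vehicle to WT 0.106. Without cluster 1 the WT share was 14.0%. With at least 1000 genes per cell the rd10-vehicle share was 0.486% and its ratio to WT 0.0448. With at most 10% mitochondrial UMIs the shares were 7.34% in WT and 0.522% in rd10-vehicle. Cells with Gad1 or Gad2 were 65.1% in WT and 58.1% in rd10-vehicle at 2 UMIs, 65.1% in WT when thinned, and 91.6%, 96.0% and 91.3% with at least 1000 genes. Cells with Maf were 10.9% in WT when thinned and 48.8% in rd10-vehicle at 2 UMIs, where the ratio of the shares of cells without Maf in rd10-vehicle to WT moved from 0.0190 to 0.0407. Of 4102 values of single genes 3793 stayed within their main counting interval and 303 moved further. Sign changes were counted only for genes past the fold in the main setting, so those of Npy and Calb2 given above are not among them. These were 6: Tac2 in rd10-TMB over WT to 1.0 as a mean over cells, Tac1 in rd10-vehicle over WT to 0.43 against WT cells that carried Xist but no Y-linked transcript, Gabra2 in rd10-TMB over WT to 0.31 when thinned and 0.45 in Maf cells, and, in Maf cells, Maf in rd10-vehicle over WT to -0.06, by construction, and Prdm8 in rd10-TMB over WT to -0.01. Apart from that of Maf, the cause was not tested. Without the highest cell of each gene the splits against WT were 44 higher and 235 lower, and 38 higher and 269 lower, since 1 cell is a larger part of the small libraries. The alternatives on Maf and on the highest cell were chosen after seeing the data. No paired analysis was possible because each group was 1 library and the labels give no replicate numbers. With 43 and 35 rd10 cells, genes seen in few cells could not be followed, and a lower level of a rare type cannot be told apart from fewer of its cells.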

Other observations

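Housekeeping groups differed in level between the libraries in cluster 5. Ribosomal protein genes summed to 41898 CPM in WT, against 49621 CPM in rd10-vehicle and 57059 CPM with TMB, and 64 and 77 of the 77 tested genes lay above WT, with 0 past the fold. Nuclear genes of the respiratory chain summed to 23003, 24340 and 27468 CPM, and 47 of 74 lay above WT in rd10-vehicle and 64 of 75 in rd10-TMB, with medians of 0.08 and 0.29 beside 0.05 and 0.12 for all genes. The 13 mitochondrially encoded genes summed to 52930, 45442 and 35255 CPM, and all 13 lay below WT in both rd10 libraries. The median mitochondrial share per cell was 8.89%, 6.23% and 3.19%, and 198, 16 and 8 cells exceeded 10%. Of 72 nuclear respiratory chain genes tested in rd10-TMB over rd10-vehicle, 3 were higher past the fold, beside 2.27% of all genes, from which nothing is read about the list. These were Ndufs8, Uqcr10 and Uqcr11, at 13 and 33, 20 and 59, and 16 and 52 UMIs in rd10-vehicle and rd10-TMB.

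Stress response genes summed to 4028, 4199 and 4206 CPM, and 0 of 7 tested were past the fold against WT in either rd10 library. Of the clock genes, Per3 was at 166, 331 and 307 CPM, and it was the one of 7 tested past the fold, beside 2.30% of all genes. Its log2 ratio for rd10-vehicle over WT was 1.02 (0.54 to 1.42). Within Maf cells this was 0.54 (-0.05 to 1.07). Lpl, the lipoprotein lipase gene that set WT cluster 5 apart from other cells, was higher in both rd10 libraries, at 106, 325 and 214 CPM, but at 258, 329 and 262 CPM within Maf cells, where its log2 ratios to WT were 0.37 (-0.23 to 0.91) and 0.05 (-0.61 to 0.62). Resp18, a neuroendocrine secretory granule gene, was at 74.6, 238 and 274 CPM, and within Maf cells its log2 ratio to WT was 1.0 (0.32 to 1.63) in rd10-vehicle and 1.20 (0.56 to 1.81) in rd10-TMB.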
